A study of Mus musculus with 18 samples.

Results

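The solute carriers are the named families of membrane proteins that move small molecules across cell and organelle membranes, and their mRNA levels were followed in mouse embryos with and without Oct4. Genes were taken by name alone, as all symbols that begin with Slc, a family number, the letter a and a member number, or with Slco, leaving out Slc2a1, Slc7a3 and Slc6a8. The rule itself uses no measured value, but it was set with earlier results of these data known. No reason is given for leaving out those 3 genes. The rule found 137 genes among the 8202 genes present in at least 1 of the 3 stage tables. Of them 107 were measured at E2.5 (among 7082 genes), 102 at E3.75 (among 6648) and 108 at E4.5 (among 6545). Of these, 78 were in all 3 tables, 24 in 2 tables and 35 in 1 table. Sorted by substrate, 23 carry amino acids or peptides, 13 sugars or sugar phosphates, 3 nucleotide sugars, 23 metals and 4 carboxylates, 27 are Slc25 carriers of the mitochondrial family, 15 carry ions that set pH, potassium, calcium, phosphate or sulphate, and 21 carry vitamins, nucleosides, lipids or organic ions. A further 2 (Slc5a5 for iodide and Slc6a13 for GABA) fit none of these groups. The remaining 6 symbols (Slc4a1ap, Slc7a6os, Slc9a3r1, Slc9a3r2, Slc13a2os and Slc36a3os) follow the pattern but name an adaptor, an opposite-strand gene or a regulator and no carrier.

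A carrier sets which nutrient can enter a cell or a compartment, some by exchange and others by coupling to the gradients of sodium or protons. The preimplantation embryo takes up pyruvate and amino acids first and takes up more glucose as the blastocyst forms, and its outer cells, the trophectoderm, form a polarised epithelium that transports nutrients into the cavity. Carriers of the Slc25 family sit mostly in the inner mitochondrial membrane and exchange nucleotides, phosphate and metabolites between the matrix and the rest of the cell.

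The groups were Oct4 +/+ (wild type) and Oct4 -/- (null) embryos of the CD1 strain, untreated, flushed from oviduct or uterus at embryonic stage E2.5, E3.75 or E4.5, with 3 libraries in each of the 6 groups. Oct4, encoded by Pou5f1, is a transcription factor of the early embryo and of the inner cell mass that forms inside the blastocyst. The labels do not describe the null allele. Priming at the poly(A) tail put most reads within the 3′ ends of transcripts, so a level in CPM (reads of a gene scaled to a library total of 1000000) is not divided by gene length, and levels of different genes are not ranked here.

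Pou5f1 itself lay between 1723 and 2093 CPM in wild type and between 931 and 1011 CPM in null libraries at E2.5, between 380.4 and 599.9 against 221 and 286 CPM at E3.75, and between 183 and 274 against 95.1 and 142 CPM at E4.5, so the groups did not overlap at any stage. Reads remained in every null library, and since the null allele is not described, these 3′ reads cannot show whether they come from a mutant transcript. Depth ran from 364936 reads (E4.5 null, library 1) to 1922432 reads (E2.5 null, library 2). The third library of a group could be approximated by a weighted mix of its companions. Around that mix (weights of 0.22 to 0.57) library 3 of each group, C for wild type E4.5, varied 0.983 to 1.25 times as much as read sampling gives. For the remaining libraries the best weight was 0, which is 1 companion and no mix, and they varied 1.08 to 2.77 times around it. Whether library 3 is independent of its companions was not tested, so n = 3 may overstate the independent libraries of a group. A library that is such a mix would add little to the counts of groups without overlap. For the calls below, the adjusted p from libraries 1 and 2 of each group alone is therefore also given, singly or as a range. For markers it is given where the call was lost. These are libraries A and B for wild type E4.5, whose columns carry no numbers.

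Cell type markers moved between the groups too, and fewer cells of a type cannot be told apart from less RNA per cell in whole embryos. Of 8 epiblast markers measured at E3.75, 1 (Nanog) passed as higher and 6 as lower in null embryos, with sums of 1001 to 1320 CPM in wild type and 805 to 891 CPM in null libraries. That list holds Pou5f1, the gene by which the genotypes were defined. Without it 5 of 7 passed as lower, with sums of 621 to 720.0 against 584 to 605 CPM. Of 8 primitive endoderm markers 2 (Dab2 and Col4a1) passed as higher and 4 as lower, with a median difference of -1.02. Their sums still lay higher without Oct4 (1246 to 1386 against 1432 to 1565 CPM). Dab2, the marker with most reads in that list, averaged 629.5 (wild type) against 986.2 CPM (null). Of 10 trophectoderm markers 1 passed as higher (7038 to 8270 against 6296 to 7190 CPM). The haemoglobin genes Hba-a1 and Hbb-bs, the 2 measured of 8 markers for maternal cells, both passed as higher at E3.75 (92 to 149 against 156 to 397 CPM). At E2.5 the epiblast sum was 2224 to 2534 CPM in wild type against 1350 to 1425 CPM in null libraries, most of it Pou5f1. Without Pou5f1 the sums overlapped, at 441 to 513 against 415 to 446 CPM, and 0 of 5 markers passed. Of 8 trophectoderm markers at E2.5, 1 (Hand1) passed as higher (0.96 ± 0.12, limma adjusted p = 0.0101). Their median was 0.23, with overlapping sums of 2920 to 3317 against 3290 to 3706 CPM. None of 4 primitive endoderm or 2 maternal markers passed there (967 to 1090 against 994 to 1142 CPM, and 945 to 1258 against 975 to 1184 CPM). At E4.5, where no marker passed, the epiblast sum was 808 to 987 against 427 to 523 CPM, and 574 to 713 against 332 to 381 CPM without Pou5f1. The primitive endoderm sum was 1353 to 1468 against 1178 to 1312 CPM there (median difference of -0.95 over 7 markers), and the maternal list summed to 123 to 235 against 137 to 891 CPM. With the first 2 libraries of each group alone, the calls of Fgf4, Klf2, Esrrb, Col4a1 and Tead4 at E3.75 were lost (limma adjusted p of 0.0815 to 0.501). That of Hand1 at E2.5 was lost as well (limma adjusted p = 0.157), and the other marker calls held. The part of these markers in the results for the carriers was not tested.

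At E3.75, 3 carriers rose in null embryos: Slc46a1, which takes up folate together with protons, Slc5a6, which takes up the vitamins biotin and pantothenate together with sodium, and Slc39a4, which imports zinc. Another 7 members fell: the ADP/ATP carriers Slc25a4 and Slc25a5 of mitochondria, the peptide transporter Slc15a2, the aromatic amino acid transporter Slc16a10, the choline transporter Slc44a1, the fatty acid transport protein Slc27a4, and Slc9a3r1, a scaffold protein that carries nothing itself. A gene is said to have risen or fallen where limma gave an adjusted p under 0.05 over all genes of the stage. The 3 members that rose are 2.94% of the 102 measured, against 3.6% of all genes, and the 7 that fell are 6.86%, against 4.6% of all genes. With library scaling by TMM the split was 3 higher and 4 lower (4.32% and 3.25% of all genes), and with DESeq2 size factors it was again 3 and 4 (4.24% and 3.29% of all genes). In this table the third highest library of a gene is at 10.4 CPM or above. For 11 members all 3 wild type libraries but not all null libraries reached that level, and for 5 members the reverse, so the selection favoured a difference in that direction for them. Of the 11, 6 are among those with null libraries wholly lower and 1, Slc16a10, among the 7 that fell. Of the 5, 2 are among those with null libraries wholly higher. The null libraries lay wholly above the wild type libraries for 13 members (12.7%, against 11.4% of all genes) and wholly below for 22 members (21.6%, against 15.7% of all genes). The median difference of null minus wild type was -0.04 on the log2(CPM + 1) scale over the members and -0.04 over all genes.

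**Figure D1:**
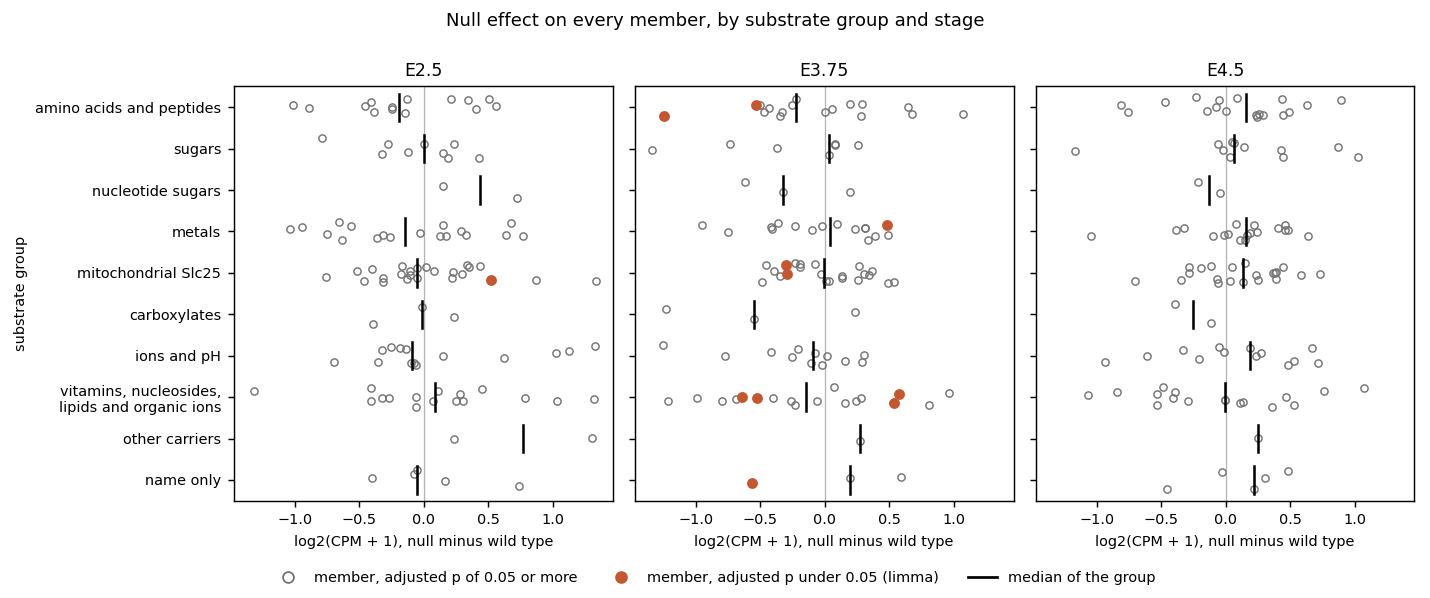
Difference between null and wild type embryos (horizontal axis, log2(CPM + 1), null minus wild type) for every member at each stage, by substrate group (vertical axis). Open circles are members that missed the threshold, filled circles those with an adjusted p under 0.05 in limma, and black bars group medians. Filled circles stand at E3.75 for 3 members to the right of 0 and 7 to the left, at E2.5 for 1, and at E4.5 for none.

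Slc46a1 (ENSMUSG00000020829) stood at 400.5, 477 and 417 CPM in the wild type and at 661, 645 and 620.4 CPM in the null libraries of E3.75. All null libraries lay above all wild type libraries. The rise was 0.58 ± 0.09 (log2 difference ± SE, n = 3 per group, limma adjusted p = 0.000401), a 1.49-fold higher level. With the first 2 libraries of each group alone the adjusted p was 0.0103.

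Slc5a6 (ENSMUSG00000006641) stood at 453, 446 and 430.5 CPM in the wild type and at 627, 662 and 643 CPM in the null libraries. Here too the groups lay apart, with an SD of 11.6 and 17.8 CPM. It rose by 0.54 ± 0.09 (adjusted p = 0.00041), 1.45-fold, with an adjusted p of 0.0307 from the first 2 libraries. Slc5a6 overlaps Atraid, a protein-coding gene of the opposite strand, in the gene annotation, and whether counting used the strand is not given in the sources used here. Atraid itself averaged 101 ± 18.1 CPM (SD, n = 3) in wild type embryos, and 120.2 ± 14.4 CPM in null embryos (adjusted p = 0.34).

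Slc39a4 (ENSMUSG00000063354) stood at 370.5, 452.5 and 415 CPM in the wild type and at 599, 557 and 574 CPM in the null libraries, again without overlap. It rose by 0.49 ± 0.095 (adjusted p = 0.00239), 1.4-fold, with an adjusted p of 0.0493 from the first 2 libraries. All 3 carriers kept an adjusted p under 0.05 in limma with any 1 of the 6 libraries left out. Both edgeR (4.51% of all genes higher) and DESeq2 (4% of the genes it tested) on the recovered reads also called all 3.

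**Figure D2:**
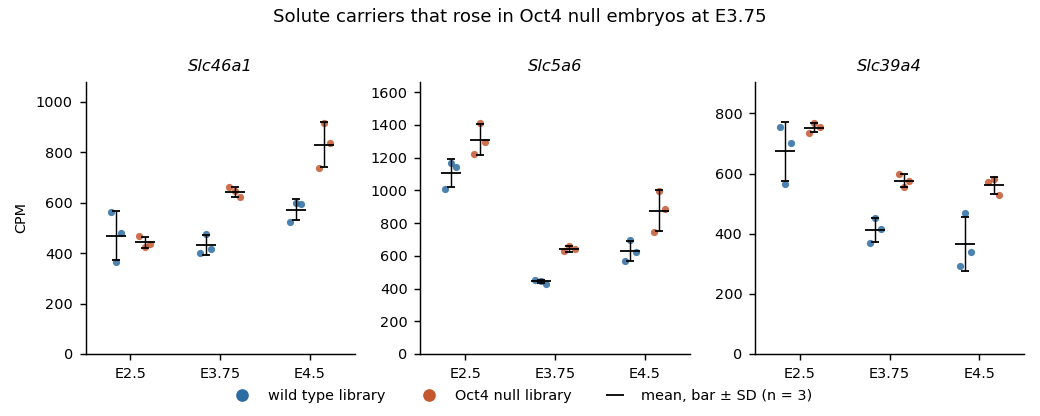
Level of Slc46a1, Slc5a6 and Slc39a4 (vertical axes, CPM, from 0) at the 3 stages (horizontal axes). Points are libraries, black marks the mean with a bar of 1 SD (n = 3). At E3.75 and E4.5 the null points of all 3 genes lie above the wild type points, while at E2.5 those of Slc46a1 and Slc39a4 overlap.

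The 300-base windows around the start sites of Slc46a1 and Slc5a6, the 2 genes that rose at E3.75 and matched an entry of the RefSeq promoter table (build GRCm38.p6), are shown because they were searched for the octamer bound by Oct4 and its relatives. Each runs from 250 bases before to 50 bases after an annotated start, 5′ to 3′ on the strand of the gene. Slc46a1 lies on the plus strand (chr11:78465451-78465750). Slc5a6 lies on the minus strand and has 2 start sites (chr5:31048513-31048812 and chr5:31048030-31048329). Capitals mark the letters GGGCGG of a GC box on either strand, a motif chosen after the windows had been seen.
Slc46a1: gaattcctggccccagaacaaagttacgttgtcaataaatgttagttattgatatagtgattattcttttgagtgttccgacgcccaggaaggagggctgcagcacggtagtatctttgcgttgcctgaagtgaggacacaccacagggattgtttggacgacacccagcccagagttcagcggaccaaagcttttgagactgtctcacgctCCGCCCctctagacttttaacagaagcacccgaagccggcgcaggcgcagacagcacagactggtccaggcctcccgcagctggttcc
Slc5a6 upstream start: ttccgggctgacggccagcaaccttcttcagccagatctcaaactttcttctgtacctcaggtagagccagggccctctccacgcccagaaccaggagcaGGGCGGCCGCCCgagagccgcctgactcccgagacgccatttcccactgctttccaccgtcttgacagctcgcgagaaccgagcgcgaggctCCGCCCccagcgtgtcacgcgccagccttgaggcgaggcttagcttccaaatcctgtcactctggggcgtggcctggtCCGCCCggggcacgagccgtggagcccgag
Slc5a6 downstream start: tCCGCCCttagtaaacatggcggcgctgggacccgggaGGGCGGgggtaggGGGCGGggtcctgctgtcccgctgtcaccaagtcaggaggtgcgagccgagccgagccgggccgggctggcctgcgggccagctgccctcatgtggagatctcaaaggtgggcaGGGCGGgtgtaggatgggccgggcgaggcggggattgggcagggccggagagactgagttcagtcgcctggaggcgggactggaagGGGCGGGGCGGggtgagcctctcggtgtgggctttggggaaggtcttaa

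The octamer ATGCAAAT was in none of these windows on either strand. They held 1 GC box for Slc46a1 and 4 and 6, some of them overlapping, for Slc5a6. Of all 32851 promoter windows 35.7% held a GC box, as did 72% of the 143 windows of the 103 members with an entry. The octamer was in 1.74% of all windows and in 0.699% of member windows, which is 1 window, of the UDP-galactose transporter Slc35a2. The letters TGATGCAA, to which factors of the amino acid response bind, were in 0.895% of all windows and in 2.1% of member windows, 3 windows of the cationic and neutral amino acid exchanger Slc7a7 and the sugar transporter Slc50a1. In limma Slc35a2 and Slc7a7 missed the threshold at every stage, and Slc50a1 at E4.5, the stage table that holds it. Members are genes that reached the level needed for a stage table, whereas the 32851 windows were not limited to such genes. The shares are thus of unlike sets and show no trait of solute carriers. A match is a description of letters and shows no binding.

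Among the 7 members that fell at E3.75, both mitochondrial carriers exchange ADP for ATP across the inner membrane. Slc25a5 stood at 1606, 1636 and 1663 CPM in wild type and 1208, 1438 and 1335 CPM in null libraries, all null libraries lower, and fell by 0.30 ± 0.07 (adjusted p = 0.0111). Slc25a5 has processed copies in the genome (Slc25a5-ps among them), so its reads could be split between copies in counting and its level is uncertain. Slc25a4 stood at 1277, 1499 and 1529 CPM in wild type and 1121, 1167 and 1211 CPM in null libraries, without overlap, and the difference was -0.295 ± 0.08 (adjusted p = 0.0189). The phosphate carrier Slc25a3, which supplies the phosphate for ATP synthesis, stood at 1879, 1528 and 1602 against 1449, 1420.0 and 1491 CPM, also without overlap, and missed the threshold (adjusted p = 0.116). Over all 22 Slc25 carriers of E3.75, 0 passed as higher and 2 as lower, with a median of -0.01. Their summed level was 5944 to 6107 CPM in wild type and 5109 to 5376 CPM in null libraries.

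Of the 17 amino acid and peptide carriers at E3.75, 0 passed as higher and 2 as lower, with a median of -0.22. Slc15a2, which takes up small peptides together with protons, stood at 224, 183 and 203 CPM in wild type and at 131, 134.5 and 155 CPM in null libraries. It fell by 0.53 ± 0.13 (adjusted p = 0.0123), and no null library reached a wild type library. Slc16a10, which lets aromatic amino acids pass, was low, at 24.4, 15.3 and 22.6 CPM against 8.09, 6.54 and 9.74 CPM, and fell by 1.24 ± 0.37 (adjusted p = 0.0415). None of its null libraries reached 10.4 CPM, so it is in the table only through wild type, where it is high, and its fall is in part set by that selection. Those with most reads of this group, the amino acid exchanger Slc7a6, the neutral amino acid transporter Slc38a4 and Slc3a2, had overlapping groups. Slc3a2 is the heavy subunit that brings exchangers such as Slc7a6 to the membrane. The differences of Slc7a6, Slc38a4 and Slc3a2 were -0.22, 0.28 and -0.25 (adjusted p of 0.334, 0.287 and 0.186).

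In the group of vitamin, nucleoside, lipid and organic ion carriers 2 of 18 passed as higher (Slc46a1 and Slc5a6) and 2 as lower at E3.75. Slc44a1, which takes up choline for phospholipid synthesis, stood at 180.5, 129.9 and 135 CPM in wild type and 87.9, 113 and 106 CPM in null libraries and fell by 0.52 ± 0.155 (adjusted p = 0.0403). It overlaps the opposite-strand gene 1700060J05Rik in the annotation. Slc27a4, which takes up long-chain fatty acids and activates them with coenzyme A, stood at 60.2, 81.5 and 97.2 CPM against 48.5, 52.3 and 48.0 CPM, and the difference was -0.645 ± 0.19 (adjusted p = 0.0414). The scaffold Slc9a3r1, which holds transporters at the apical membrane of epithelia, stood at 173, 123 and 149 CPM against 104, 83.6 and 111 CPM and fell by 0.57 ± 0.16 (adjusted p = 0.0265). For each of these 3 genes the groups did not overlap.

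The 7 falls depended on single libraries in a way the 3 rises did not. With the first 2 libraries of each group alone, none of the 7 passed in limma (adjusted p of 0.0861 to 0.514), whereas all 3 rises did. Those libraries called 1.07% of all genes higher and 1.26% lower. Without wild type library 3, 0 members passed as lower (1.43% of all genes did), and without null library 1 the only member to pass as lower was Slc44a2, a second choline transporter-like protein (1.56% of all genes did). Without null library 3, 4 members passed as lower (2.45% of all genes), and without wild type library 1 also 4 (3.93%). Without wild type library 2 it was 8 as lower (5.2% of all genes), beside 5 as higher (4.6%). edgeR called 7 members lower (3.79% of all genes), 6 of the 7 above and Slc44a2 in place of Slc44a1, and DESeq2 called Slc15a2 alone as lower (2.66% of the genes it tested).

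**Figure D3:**
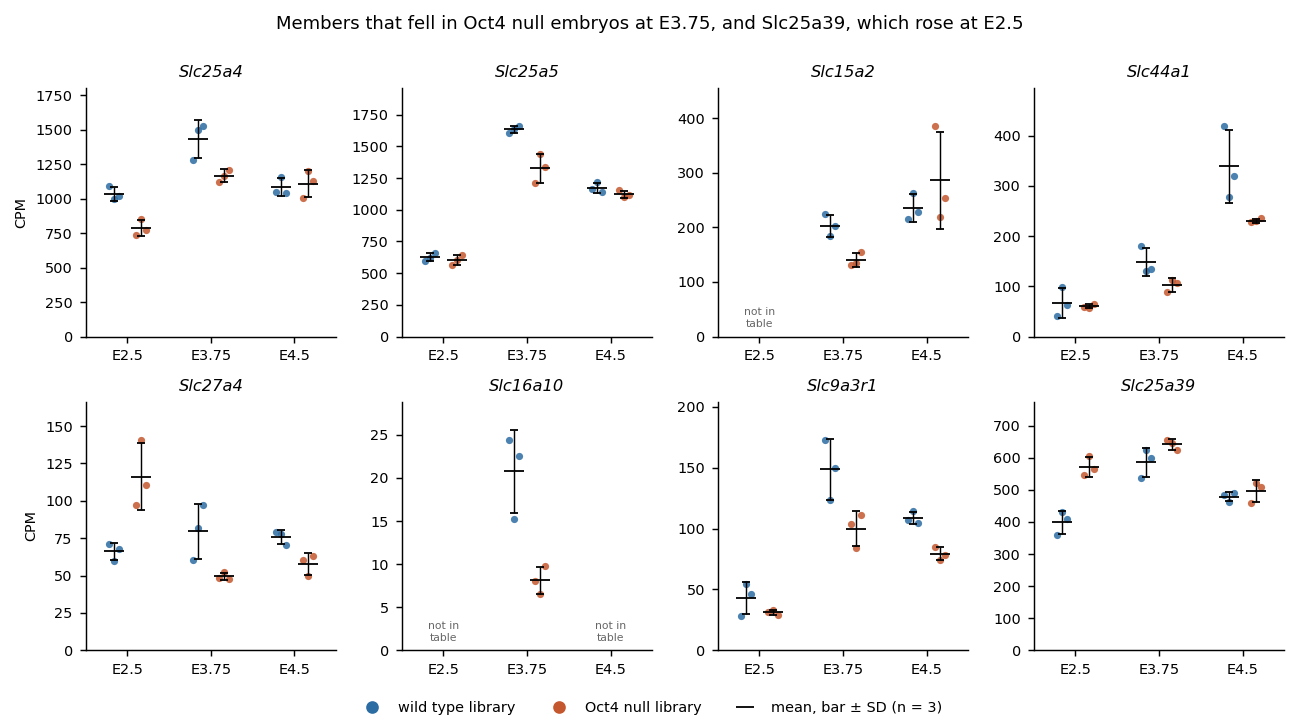
Level of the 7 members that fell at E3.75, and of Slc25a39, which rose at E2.5 (vertical axes, CPM, from 0), at the 3 stages (horizontal axes). Points are libraries and black marks the mean with a bar of 1 SD (n = 3). At E3.75 the null points of the 7 lie below the wild type points, at E2.5 those of Slc27a4 lie above them, and at E4.5 those of Slc25a4 and Slc25a5 overlap with them.

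The remaining substrate groups held at most 1 called member at E3.75. Of 16 metal carriers 1 (Slc39a4) passed as higher and 0 as lower, with a median of 0.04. The zinc importer Slc39a2 stood at 103, 105 and 109 CPM in wild type and at 84.4, 126 and 107 CPM in null libraries (adjusted p = 0.952), and Slc39a7, which releases zinc from the endoplasmic reticulum, at 105, 116 and 146 against 86.7, 98.1 and 98.8 CPM (adjusted p = 0.161). Slc39a2 overlapped between the groups, Slc39a7 lay lower in all null libraries, and neither passed. Of the 7 sugar carriers 0 passed. Slc2a3, a glucose transporter of high affinity, stood at 1352, 1302 and 1297 CPM in wild type and at 1274, 1550.0 and 1365 CPM in null libraries, a difference of 0.08 (95% interval from -0.08 to 0.24, adjusted p = 0.577). None of the 12 ion carriers, 3 nucleotide sugar carriers or 3 carboxylate carriers passed, with medians of -0.09, -0.33 and -0.55. The monocarboxylate transporter Slc16a1, which carries pyruvate and lactate, was low at 13.2, 12.7 and 15.6 CPM in wild type and lower, at 4.62, 5.82 and 5.56 CPM, in every null library, and missed the threshold (-1.23 ± 0.44, adjusted p = 0.0914). It too is in the table only through its wild type libraries, so its lower null level is in part set by that selection and is not read as a fall.

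At E2.5, before the blastocyst forms, 1 member rose and 0 fell. Slc25a39, which imports glutathione into mitochondria, stood at 359, 429.7 and 408 CPM in wild type and at 546, 605 and 564 CPM in null libraries. All null libraries lay higher, and the rise was 0.52 ± 0.10 (n = 3 per group, limma adjusted p = 0.0413). This is 0.935% of 107 members, against 0.409% of all genes called higher and 0.184% called lower. The adjusted p was 0.667 with the first 2 libraries of each group, and it missed the threshold without any 1 of the null libraries (0.162 to 0.271) or without wild type library 3 (0.125). Null libraries lay wholly above wild type for 17 members (15.9%, against 13.6% of all genes) and wholly below for 15 (14%, against 14.1% of all genes). In this table the third highest library of a gene is at 10.28 CPM or above. For 12 members all 3 null but not all wild type libraries reached that level, and for 6 the reverse. Of the 12, 4 are among those wholly higher, and of the 6, 3 are among those wholly lower, so the selection favoured those differences. The median difference was -0.05 over members and -0.02 over all genes.

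Several carriers came close to the threshold at E2.5, and their calls depended on the method. For the 0 falls of limma, 13 members were lower at an unadjusted p under 0.05 (9.63% of all genes were), edgeR called 2 lower (0.706% of all genes) and DESeq2 2 (1.44% of the genes it tested), in both cases Slc25a4 and the glutamine transporter Slc1a5. Slc25a4 stood at 1095, 1000.0 and 1017 CPM in wild type and at 736.5, 850.0 and 773 CPM in null libraries (-0.40 ± 0.08, limma adjusted p = 0.0557). It was thus below wild type in all null libraries at both E2.5 and E3.75. On the higher side, 17 members had an unadjusted p under 0.05 in limma (15.9%, against 762 of 7082 genes). There edgeR called 4 members and DESeq2 5, Slc27a4 in both cases, and the share of all genes was not counted for these calls. Among higher members Slc3a2 stood at 309, 252 and 310.5 CPM in wild type and at 366, 403 and 381 CPM in null libraries (0.405 ± 0.11, adjusted p = 0.0859). Leaving out wild type library 1 gave 6 members higher and 2 lower, where 3.11% of all genes were called higher and 2.4% lower, and leaving out wild type library 2 gave 9 and 6 (5.52% and 5.39% of all genes).

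By group, the 24 Slc25 carriers of E2.5 held the 1 call and had a median of -0.05. No other group held a call. Medians were -0.19 for 14 amino acid and peptide carriers, 0.00 for 9 sugar carriers, -0.15 for 18 metal carriers, -0.09 for 14 ion carriers and 0.09 for 16 carriers of vitamins, nucleosides, lipids and organic ions. Slc5a6 lay higher in all null libraries already at this stage, at 1006, 1166 and 1145 CPM in wild type and 1224, 1411 and 1295 CPM in null libraries (0.245 ± 0.08, adjusted p = 0.139). Slc46a1 did not, at 562, 366 and 478 against 468, 423 and 435 CPM (-0.06 ± 0.14, adjusted p = 0.823), nor did Slc39a4, at 756, 566 and 702 against 736.5, 768 and 754.5 CPM (0.17 ± 0.105, adjusted p = 0.386).

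At E4.5 no member passed in limma, as no gene of the table did (0% of 6545 genes). At an unadjusted p under 0.05, 11 of the 108 members were higher (10.2%, against 8.56% of all genes) and 9 lower (8.33%, against 6.49%). Null libraries lay wholly above wild type for 14 members (13%, against 12.2% of all genes) and wholly below for 9 (8.33%, against 9.99%). In this table the third highest library of a gene is at 10.42 CPM or above. For 10 members all 3 null but not all wild type libraries reached that level, and for 5 the reverse. Of the 10, 4 are among those wholly higher, and of the 5, 1 is among those wholly lower, so the selection favoured those differences. The median was 0.10 over members and 0.06 over all genes. edgeR called 1 member higher, Slc46a1 (adjusted p = 0.0498), which was also the only gene of the whole table that it called higher (0.0153%), and 0 lower (0.626% of all genes). DESeq2 called Slc46a1, Slc5a6 and Slc39a4 higher (3 members, against 1.03% of the genes it tested) and Slc7a7 and Slc44a1 lower (2 members, against 3.26%).

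The 3 carriers that rose at E3.75 lay above wild type in every null library at E4.5 as well. Slc46a1 stood at 525, 597 and 594 CPM in wild type and at 737, 915 and 837 CPM in null libraries, a difference of 0.53 ± 0.11 (95% interval from 0.30 to 0.77, limma adjusted p = 0.125). Slc5a6 stood at 571, 694 and 621 CPM against 745, 994 and 884 CPM, a difference of 0.47 ± 0.12 (adjusted p = 0.165). Slc39a4 stood at 293, 467 and 340.0 CPM against 573, 581 and 527 CPM, a difference of 0.64 ± 0.15 (adjusted p = 0.143). Null library 1 was the shallowest of all libraries, and without it Slc46a1, Slc5a6 and Slc4a11, a transporter of the bicarbonate carrier family, passed as higher (0.535% of all genes did) and Slc7a7 and Slc39a2 as lower (1.3%). A fit over all 18 libraries called 4 members higher (2.17% of 5430 genes), the 3 carriers that rose at E3.75 and the nucleobase transporter Slc43a3, and 0 lower (1.9%). Slc43a3 is in the E4.5 table through all 3 null and 2 wild type libraries at 10.42 CPM or above. With the first 2 libraries of each group the adjusted p was 0.832 for each of the 3.

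Of the members that had fallen at E3.75, Slc44a1, Slc27a4 and Slc9a3r1 lay below wild type in all null libraries at E4.5, and Slc25a4, Slc25a5 and Slc15a2 overlapped. Slc44a1 stood at 419.9, 277 and 319.8 CPM in wild type and at 227, 229.7 and 235 CPM in null libraries (-0.53 ± 0.15, adjusted p = 0.171). Slc25a4 stood at 1048, 1158 and 1044 against 1003, 1198 and 1128 CPM (0.03 ± 0.09, adjusted p = 0.89, its sign turning with the scaling), and Slc25a5 at 1160, 1220 and 1137 against 1154, 1101 and 1114 CPM (-0.06 ± 0.08, adjusted p = 0.732). Slc16a10 was not in this table. Medians at E4.5 were 0.16 for the 18 amino acid and peptide carriers, 0.07 for 11 sugar carriers, 0.16 for 18 metal carriers, 0.14 for 21 Slc25 carriers, 0.19 for 13 ion carriers and -0.01 for 17 carriers of vitamins, nucleosides, lipids and organic ions.

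Whether the effect of losing Oct4 differed between stages was tested as a difference of differences in limma, which shared no control library between stages. Between E2.5 and E3.75, 2 of 83 members passed, against 0.967% of the 5893 genes in both tables. Slc27a4 stood at 70.9, 59.9 and 68.1 CPM in wild type and at 96.9, 141 and 110.5 CPM in null libraries at E2.5, where all null libraries were higher. At E3.75 all null libraries were lower, as given above. Its null effect went from 0.79 to -0.645, a change of -1.43 ± 0.27 (95% interval from -1.98 to -0.88, adjusted p = 0.0119). The call held in 10 of 12 fits with a library left out, the exceptions being null library 2 of E2.5 and wild type library 3 of E3.75, and was lost with the first 2 libraries of each group (adjusted p = 0.889).

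Slc44a2, the choline transporter-like protein named above, stood at 6.54, 10.4 and 5.67 CPM in wild type and at 11.8, 24.4 and 14.1 CPM in null libraries at E2.5, a low level with the null libraries higher. In that table the third highest library of a gene is at 10.28 CPM or above, a level that 1 wild type and all 3 null libraries reached, so Slc44a2 is in it only through the null group and its positive effect at E2.5 is in part set by that selection. At E3.75 it stood at 105, 50.9 and 69.4 CPM against 56.6, 43.6 and 27.8 CPM, where the groups overlapped. The null effect went from 1.03 to -0.80, a change of -1.83 ± 0.45 (adjusted p = 0.0499), and the call held in 2 of 12 fits with a library left out (wild type library 2 of either stage) and not with the first 2 libraries (adjusted p = 0.889). For Slc46a1 the change was 0.64 ± 0.17 (95% interval from 0.295 to 0.99, adjusted p = 0.0597), which missed the threshold, so a rise that begins after E2.5 was not shown for it. For Slc5a6 and Slc39a4 the changes were 0.29 and 0.32 (adjusted p of 0.351 and 0.44).

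**Figure D4:**
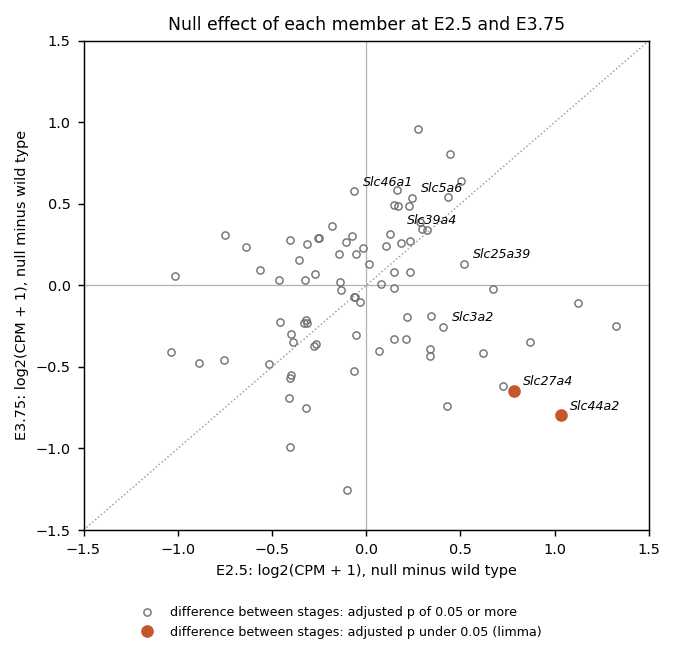
Null effect of each of the 83 members measured at both stages, at E2.5 (horizontal axis) and E3.75 (vertical axis), each as log2(CPM + 1), null minus wild type; the dotted line marks equal effects. Filled circles are the members whose effect differed between stages. Slc27a4 and Slc44a2 lie at 0.79 and 1.03 on the horizontal axis and below 0 on the vertical axis.

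Between E3.75 and E4.5 none of 89 members passed (0.102% of 5882 genes did). At an unadjusted p under 0.05, 11 members differed (14% of all genes did). The smallest p-values belonged to Slc37a1, a sugar phosphate exchanger (change of 1.765 ± 0.51, adjusted p = 0.13), Slc15a2 (0.78 ± 0.23, adjusted p = 0.142) and Slc38a7, a lysosomal glutamine carrier (1.07 ± 0.34, adjusted p = 0.176). For Slc37a1, 3 wild type and 2 null libraries reached 10.4 CPM at E3.75, and 2 wild type and 3 null libraries reached 10.42 CPM at E4.5. Selection for the tables thus favoured a lower null level of Slc37a1 at E3.75 and a higher one at E4.5.

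Levels at the 3 stages stand in tables scaled separately, so they are set side by side with no test. Of the 78 members in all tables, wild type libraries kept a rising order without overlap for 3 and a falling order for 5. The share of all genes in such an order was not counted, so these counts show no trait of solute carriers. Slc2a3 went from 606 ± 50.1 CPM (SD, n = 3) at E2.5 to 1317 ± 30.7 at E3.75 and 1786 ± 72.0 at E4.5, and its null libraries followed the same order (711, 1396 and 1710.0 CPM). Slc39a2 went from 30.5 ± 4.2 to 106 ± 3.0 and 384 ± 26.6 CPM, the steepest rise of the 3, and Slc44a1 from 67.3 ± 29.7 to 149 ± 27.8 and 339 ± 73.2 CPM. In the other direction Slc43a3 went from 130.2 ± 15.2 to 21.7 ± 3.4 and 11.2 ± 1.9 CPM. Slc34a2, which takes up phosphate with sodium, went from 141 ± 57.7 to 32.4 ± 2.1 and 16.3 ± 5.1 CPM. The intracellular glucose transporter Slc2a8 went from 274 ± 30.5 to 82.7 ± 1.7 and 40.0 ± 6.0 CPM, the lysosomal peptide and histidine transporter Slc15a4 from 51.1 ± 7.6 to 33.1 ± 3.9 and 22.2 ± 4.3 CPM, and the iron transporter Slc11a2 from 142 ± 20.3 to 92.5 ± 8.5 and 66.8 ± 2.0 CPM.

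Null embryos kept a rising order for 6 members and a falling order for 4. The 3 rising members of wild type were among the 6, and 3 of the 5 falling members (Slc34a2, Slc2a8 and Slc11a2) among the 4. The further members in order in null embryos alone were Slc46a1 (442, 642 and 830 CPM), the copper importer Slc31a1, the calcium exchanger Slc24a5 and, falling, the potassium chloride cotransporter Slc12a4. The share of all genes in order was not counted for null embryos either, and a difference in order between the genotypes was not tested.

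**Figure D5:**
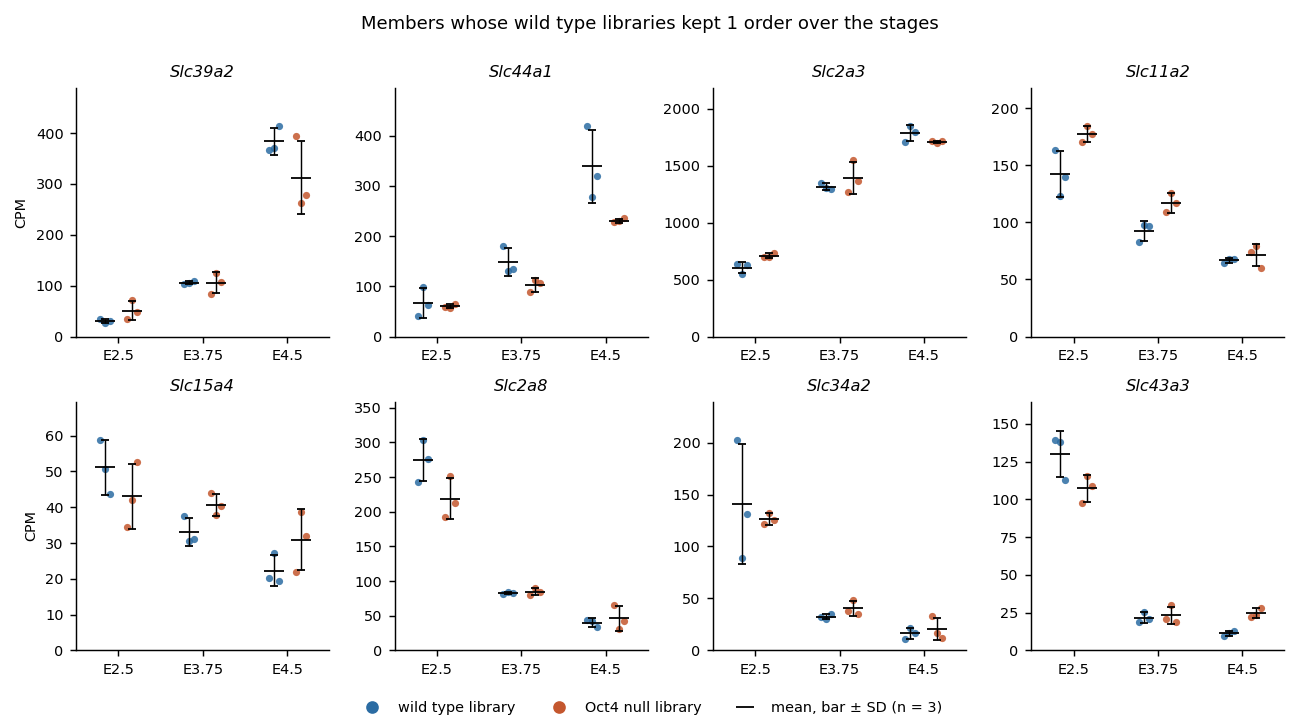
Level of the 8 members whose wild type libraries stood in 1 order over the 3 stages without overlap (vertical axes, CPM, from 0, stages on the horizontal axes). Points are libraries and black marks the mean with a bar of 1 SD (n = 3); tables of different stages were scaled separately. Slc39a2, Slc44a1 and Slc2a3 are highest at E4.5 and the other 5 at E2.5, by mean and in both genotypes.

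Genes that work with the carriers were taken from 6 lists of partners and of nutrient sensing and handling. Called genes were found at E3.75 alone. Of 15 genes for zinc and iron handling, 1 rose and 1 fell. Mt1, a metallothionein that binds zinc, stood at 2345, 3377 and 2930.0 CPM in wild type and at 3631, 4695 and 3769 CPM in null libraries. The groups did not overlap, and the rise was 0.49 ± 0.10 (limma adjusted p = 0.00251, and 2.1e-05 with the first 2 libraries). Mt2 of the same list missed the threshold (0.27 ± 0.10, limma adjusted p = 0.0958). At E4.5 the differences of Mt1 and Mt2 were 0.03 and -0.26 (limma adjusted p of 0.91 and 0.204). A link between these genes and Slc39a4 was not tested. Fth1, the heavy chain of the iron store ferritin, fell by 0.22 ± 0.06 (adjusted p = 0.015). Of 11 amino acid response genes 1 rose and 1 fell: Psat1, of serine synthesis, stood at 1192, 1341 and 1186 against 1845, 2021 and 2032 CPM (0.67 ± 0.07, adjusted p = 4e-06, and 8.3e-05 with the first 2 libraries), and Shmt2, which splits serine in mitochondria, fell by 0.96 ± 0.30 (adjusted p = 0.048).

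Of 18 genes for amino acid sensing at the lysosome, the GTPase gene Rragd rose by 0.43 ± 0.13 (adjusted p = 0.0486) and Rragc fell by 0.76 ± 0.18 (adjusted p = 0.0113). The mitochondrial pore gene Vdac2 (-0.35 ± 0.09, adjusted p = 0.0155) was the 1 of 6 genes for other mitochondrial transport to fall, and the water channel gene Aqp8 (-0.73 ± 0.17, adjusted p = 0.00931) the 1 of 9 genes for pumps and other membrane transport. None of 4 chaperone and subunit partners passed. With the first 2 libraries of each group Mt1 and Psat1 kept their calls, and the other 6 genes did not (adjusted p of 0.0964 to 0.315).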

How the data were processed

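The authors deposited 1 table of CPM per stage. Per the submitters' processing notes these rest on edgeR and the mm9 build, while aligner, counter and annotation were not given in the sources used here. Columns sum to 1000000 within their own table, so stages were scaled separately. In every table the third highest library of a gene is at 10.28 CPM or above, so members low in most libraries are not analysed here. Symbols were matched by identifier (6968, 6546 and 6443 genes at the 3 stages). Dividing by the CPM of 1 read turned 121650 of 121650 values (100%) into whole reads within 0.01, and their totals are the depth.

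Each stage was fitted in limma 3.58.1 (R 4.3.3), on log2(CPM + 1), with a variance trend, two-sided, with Benjamini-Hochberg adjustment over all genes of a table and a threshold of 0.05. Folds of low genes come out too small on this scale. Differences between stages were fitted over all 18 libraries. The labels do not say whether libraries come from separate embryos or amplifications, so p-values cover the spread between libraries, which may be technical. Alternatives were edgeR 4.0.16 and DESeq2 1.42.0 on recovered reads, scaling by TMM or DESeq2 size factors, other pseudocounts (0.1 and 5), a minimum mean of 10 CPM, thinned reads, a replicate block, 1 fit over 18 libraries, and leaving out libraries. The tests were also run on simulated reads with independent libraries, which does not cover a library that is a mix of its companions.

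The members and lists were chosen with earlier results of these data known. Named are all members that passed, the 3 with the highest mean CPM of each substrate group (given in part), the 3 smallest p-values where no stage difference passed, and partner genes that passed. Members beyond these, such as Slc16a1, Slc1a5 and those in the closing section, were named after their values had been seen. Gene overlaps come from the GENCODE annotation of GRCm38, without coordinates. The E4.5 wild type columns carry no numbers and are called A, B and C.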

Additional observations from a re-analysis of the deposited data

Results flagged for a closer look

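The null effect differed between E2.5 and E3.75 for 2 carriers by the test of the difference itself. For Slc27a4 the effect at E3.75 minus that at E2.5 was -1.43 on the log2(CPM + 1) scale (limma adjusted p = 0.0119), with null libraries above wild type at E2.5 and below at E3.75. For Slc44a2 it was -1.83 (adjusted p = 0.0499), at a wild type level under 11 CPM at E2.5, where it is in the table only through the null libraries. Neither passed with the first 2 libraries of each group.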

How the results depend on the processing

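Members were called at E2.5 as 1 higher and 0 lower. DESeq2 called 5 and 2, edgeR 4 and 2, and a limma fit over all 18 libraries 2 and 3. TMM or DESeq2 size factors each gave 1 higher and 1 lower. With libraries 1 and 2 alone it was 0 and 0, and leaving out 1 library gave 0 to 9 higher and 0 to 6 lower. At E3.75, with 3 higher and 7 lower, leaving out 1 library gave 3 to 5 higher and 0 to 8 lower. The 3 higher members were called by every other alternative run, while 1 member was lower with DESeq2, 2 over all 18 libraries, 3 with thinned reads, 4 with TMM or DESeq2 size factors and 0 with libraries 1 and 2. At E4.5, with 0 calls, DESeq2 called 3 higher and 2 lower, edgeR 1 higher, and the fit over all 18 libraries 4 higher, and leaving out 1 library gave 0 to 3 higher and 0 to 2 lower. Members whose null effect differed between E2.5 and E3.75 numbered 2, 1 with a pseudocount of 0.1, 0 with libraries 1 and 2, and 0 to 4 with 1 library left out. The median difference over members was between -0.045 and 0.040 at E2.5, -0.116 and 0.001 at E3.75 and 0.058 and 0.116 at E4.5 with 1 library left out, and at E4.5 it was 0.05 with DESeq2 size factors and 0.04 with TMM factors. For fits with no share of all genes given above, a count of members cannot be set against that among all genes. The cause of these changes was not tested.

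Replicate numbers are shared by wild type and null libraries at E2.5 and E3.75, but same-numbered libraries did not deviate together (correlations of 0.026, 0.117 and -0.032, and of -0.006, -0.07 and 0.043). With the replicate block 0 members were higher and 0 lower at E2.5, and 3 and 5 at E3.75. The share of all genes was not counted for this fit. No paired analysis was possible at E4.5 because its wild type columns carry no numbers.

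Of 1490 alternative values over 91 named results, 1343 kept direction and side of the threshold, 76 lost the call, 25 gained one and 46 changed sign, all of these in members that had missed the threshold. Signs turned for Slc13a2 at E2.5 (0.049 with libraries 1 and 2 alone, 0.002 with thinned reads), Slc20a1 at E2.5 (0.019 with libraries 1 and 2 alone), Slc35a4 at E2.5 (-0.025 with thinned reads), Slc7a6os at E2.5 (0.032 with thinned reads), Slc2a8 at E3.75 (-0.087 with thinned reads), Slc35a1 at E3.75 (-0.013 with libraries 1 and 2 alone), Slc39a2 at E3.75 (0.054 with DESeq2, 0.019 with DESeq2 size factors, 0.022 with TMM factors, 0.064 with edgeR), Slc4a2 at E3.75 (0.086 with thinned reads), Slc25a4 at E4.5 (-0.007 with DESeq2, -0.016 with DESeq2 size factors, -0.026 with TMM factors, -0.016 with edgeR, -0.007 with libraries 1 and 2 alone, -0.037 with thinned reads), Slc35a2 at E4.5 (0.066 with edgeR). With 1 library left out the difference spanned 0 for Slc13a2 at E2.5 (-0.084 to 0.029), Slc16a6 at E2.5 (-0.129 to 0.439), Slc20a1 at E2.5 (-0.214 to 0.025), Slc34a2 at E2.5 (-0.369 to 0.224), Slc35a4 at E2.5 (-0.143 to 0.446), Slc46a1 at E2.5 (-0.231 to 0.077), Slc7a6os at E2.5 (-0.374 to 0.259), Slc20a1 at E3.75 (-0.187 to 0.043), Slc2a8 at E3.75 (-0.014 to 0.073), Slc35a1 at E3.75 (-0.017 to 0.490), Slc39a2 at E3.75 (-0.155 to 0.130), Slc4a2 at E3.75 (-0.438 to 0.062), Slc13a2 at E4.5 (-0.187 to 0.006), Slc16a13 at E4.5 (-0.768 to 0.056), Slc25a4 at E4.5 (-0.024 to 0.104), Slc2a8 at E4.5 (-0.138 to 0.405), Slc35a2 at E4.5 (-0.312 to 0.210), Slc39a7 at E4.5 (-0.200 to 0.064), Slc3a2 at E4.5 (-0.017 to 0.164), Slc7a6os at E4.5 (-0.029 to 0.432), Slc9a3r2 at E4.5 (-0.032 to 0.671). Depth limits what low members can show: 1 read was worth 2.74 CPM in the shallowest library and 0.52 CPM in the deepest.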

Other observations

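Some carriers with few reads lay apart between the genotypes and missed the threshold; they were picked after their values had been seen. Slc19a1 is the other folate carrier of the data beside Slc46a1. At E2.5 it stood at 14.2, 15.0 and 12.2 CPM in wild type and at 5.14, 3.64 and 6.26 CPM in null libraries (-1.32 ± 0.385, limma adjusted p = 0.099). At E4.5 it stood at 62.6, 23.3 and 34.0 CPM against 16.4, 16.7 and 17.9 CPM (-1.07 ± 0.35, adjusted p = 0.2), and the groups did not overlap at either stage. In the E2.5 table the third highest library of a gene is at 10.28 CPM or above, which for Slc19a1 only the wild type libraries were, so its lower null level at that stage is in part set by that selection. At E3.75, where Slc46a1 rose, Slc19a1 was not in the table.

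Slco2a1, which takes up prostaglandins, lay higher in all null libraries at both blastocyst stages. At E3.75 it stood at 15.0, 18.7 and 8.68 CPM in wild type and at 37.0, 21.8 and 25.0 CPM in null libraries (0.96, adjusted p = 0.0765), where all 3 null but only 2 wild type libraries reached the 10.4 CPM of that table, and at E4.5 at 25.8, 38.8 and 29.4 CPM against 68.5, 44.9 and 48.4 CPM (0.76, adjusted p = 0.204). At E2.5 the zinc exporter Slc30a1 stood at 39.3, 31.1 and 34.9 CPM in wild type and at 19.1, 12.5 and 18.8 CPM in null libraries (-1.04, adjusted p = 0.0833). The lysosomal arginine sensor Slc38a9 stood at 39.3, 27.6 and 31.6 CPM against 14.7, 18.2 and 14.1 CPM at that stage (-1.02, adjusted p = 0.0855). The iodide carrier Slc5a5 stood at 6.54, 9.22 and 9.73 CPM against 20.6, 22.4 and 23.5 CPM (1.30, adjusted p = 0.072). It is in that table only through its null libraries, so its higher null level, too, is in part set by the selection and is not read as a rise.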
